A study of Mus musculus with 9 samples.

Results

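The 28 genes described here encode enzymes of cholesterol and fatty acid synthesis, their main transcriptional regulators and a sterol carrier. They were chosen by gene symbol, each symbol stood in 1 row of the deposited table of 53342 genes, and all 28 passed the filter on low counts. Of these, 8 act between acetyl-CoA and squalene, 10 between squalene and cholesterol and 6 in fatty acid synthesis, and 4 are regulators or carriers. RNA of whole lung of C57BL/6 mice, labelled wild type in the groups without PTH, was sequenced after poly(A) selection in 3 groups of 3 libraries. Mice of the hypoxia with PTH group (replicates 3, 4 and 5) were kept at 10% oxygen for 3 weeks and injected daily with 40 µg/kg of PTH 1-34, an active fragment of parathyroid hormone, which acts on bone and kidney to raise blood calcium. Hypoxia mice (replicates 1, 2 and 5) were kept at 10% oxygen for the same time, and normoxia mice (replicates 2, 3 and 5) were not given a hypoxia or PTH label. Saline injections of a sham group are mentioned in the protocol without saying which libraries they belong to. Age, sex and whether each library came from its own animal are not stated, so the p-values measure the spread between libraries. The study asked how PTH bears on hypoxia-induced pulmonary hypertension.

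Cholesterol is built from acetyl-CoA through mevalonate and squalene, and fatty acids are built from the same acetyl-CoA through malonyl-CoA. Transcription factors of the SREBP family, encoded by Srebf1 and Srebf2, are held in the endoplasmic reticulum by INSIG proteins while sterols are plentiful, and are cut and move to the nucleus when sterols run low. In lung, type 2 alveolar cells make fatty acids for surfactant phospholipids, and alveolar macrophages and lipofibroblasts handle lipid as well.

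Totals ran from 40234030 to 58391086 estimated counts per library, and 19640 genes were tested. Markers of type 2 alveolar cells, a lung cell type, were abundant in every library. Their summed level over 12 genes was 25906 to 29420 CPM (counts scaled to library size by TMM) in hypoxia with PTH, 20920 to 21209 CPM in hypoxia and 21682 to 25789 CPM in normoxia. The libraries also differed in clock phase. A clock score was formed as the mean centred log2 CPM of the genes Nr1d1, Nr1d2, Hlf, Tef, Per3 and Dbp less the same mean for Clock, Npas2 and Arntl, which peak at the opposite time of day. The PTH libraries scored -2.52, -1.68 and -2.45. Scores of 3.22, 2.92 and -2.09 were found for replicates 1, 2 and 5 of hypoxia, and 2.40, 2.67 and -2.47 for replicates 2, 3 and 5 of normoxia. All 3 PTH libraries therefore had low scores, as did replicate 5 of each other group. Summed adipocyte markers ranged from 37.4 to 95.4 CPM in hypoxia with PTH, 40.1 to 434 CPM in hypoxia and 54.7 to 301 CPM in normoxia, with 3 of the 11 markers at 0 in at least 1 library.

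Expressed per transcript length, the desaturases were the most abundant members. Scd2 averaged 411 TPM (a level corrected for transcript length and library size) and Scd1 338 TPM over the 9 libraries, followed by Pmvk at 143 TPM, Acly at 110 TPM, Srebf2 at 93.1 TPM and Fasn at 88.2 TPM. Insig1 (61.8 TPM), Hmgcs1 (51.7 TPM) and Srebf1 (50.2 TPM) came next. Position in the sterol pathway did not order the levels: the late enzymes Ebp (40.9 TPM) and Sc5d (26.2 TPM) averaged more than the early enzymes Mvd (16.6 TPM) and Fdps (9.82 TPM), while the late enzymes Hsd17b7 (5.87 TPM) and Dhcr7 (5.46 TPM) averaged less. The fatty acid elongase gene Elovl6 was lowest at 2.76 TPM. Library ranges of neighbours in the order of all 28 overlapped, for example 315 to 555 TPM for Scd2 and 190 to 628 TPM for Scd1, except that Elovl6 (at most 3.53 TPM) lay below Dhcr7 (at least 4.29 TPM). Pmvk and Scd1 varied most within groups, with pooled SDs of 0.40 and 0.39 in log2 CPM, and Nsdhl least, with 0.07; the median over the members was 0.19.

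**Figure D1:**
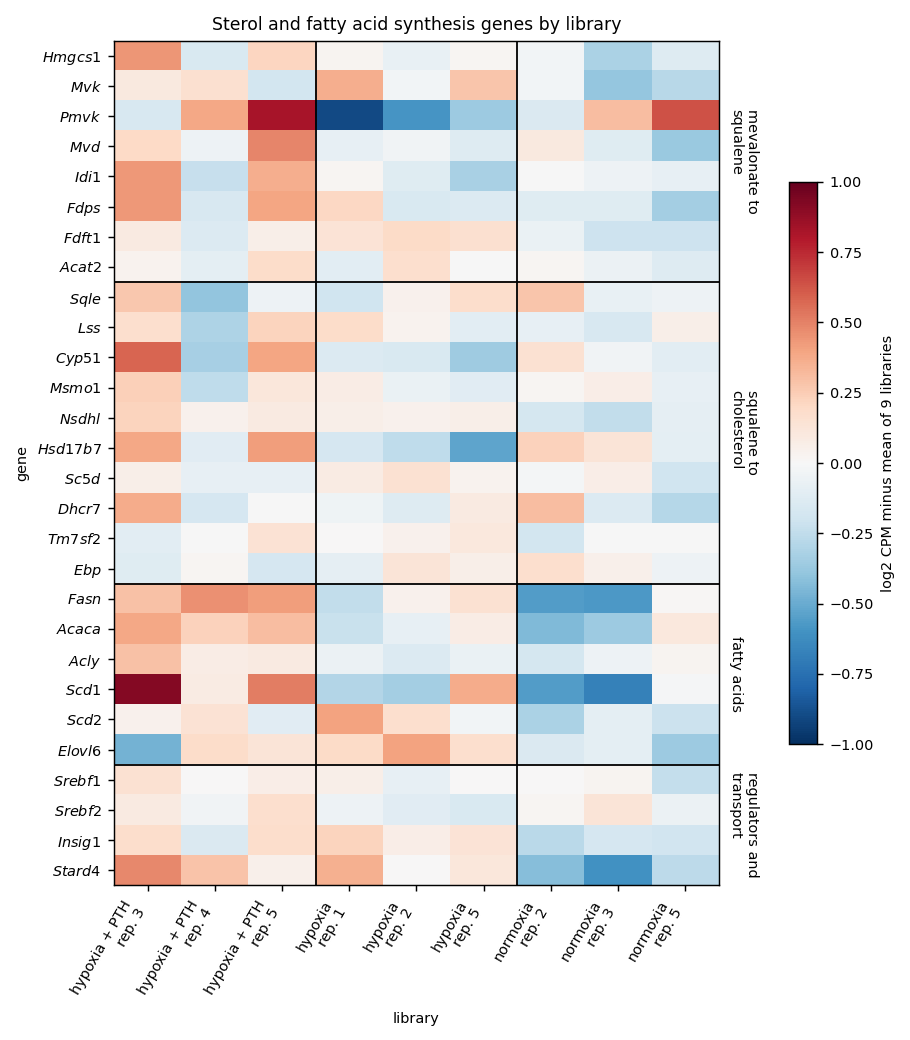
Level of the 28 genes in each of the 9 libraries as log2 CPM minus the gene's mean over all libraries, with genes grouped by role (rows) and libraries by group (columns). PTH replicates 3 and 5 were high in many sterol enzymes, the normoxia libraries 2 and 3 were low in Fasn, Acaca and Scd1, and the 3 hypoxia libraries were low in Pmvk.

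Upstream sequences are shown for Hmgcs1, which makes the precursor of mevalonate, and for Fasn, the central enzyme of the fatty acid branch. They are also shown for Mvk and Pmvk, consecutive enzymes whose hypoxia libraries lay on opposite sides of the normoxia libraries. For Mvk, the lowest hypoxia and the highest normoxia library were almost level. Each sequence holds the 250 bases before the RefSeq transcript start (GRCm38.p6), read on the strand of the gene. Capitals mark the CCAAT box (CCAAT, or ATTGG where it lies on the other strand), bound by the factor NF-Y, and the sterol element TCACNCCAC, 1 form of the site bound by SREBPs. The windows are chr13:119690101-119690350 on the plus strand for Hmgcs1, chr5:114444019-114444268 on the plus strand for Mvk, chr3:89454291-89454540 on the plus strand for Pmvk (1 of 2 RefSeq starts) and chr11:120824548-120824797 on the minus strand for Fasn.
Hmgcs1: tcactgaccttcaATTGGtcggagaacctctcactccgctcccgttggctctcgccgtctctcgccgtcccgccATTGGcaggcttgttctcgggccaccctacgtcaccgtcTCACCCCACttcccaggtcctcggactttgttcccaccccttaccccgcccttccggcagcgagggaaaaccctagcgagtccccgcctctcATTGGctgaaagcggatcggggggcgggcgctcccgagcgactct
Mvk: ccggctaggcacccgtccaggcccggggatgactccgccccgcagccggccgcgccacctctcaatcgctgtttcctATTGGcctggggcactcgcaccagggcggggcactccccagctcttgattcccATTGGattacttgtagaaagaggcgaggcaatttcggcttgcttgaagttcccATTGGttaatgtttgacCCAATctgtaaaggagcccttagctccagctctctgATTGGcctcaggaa
Pmvk: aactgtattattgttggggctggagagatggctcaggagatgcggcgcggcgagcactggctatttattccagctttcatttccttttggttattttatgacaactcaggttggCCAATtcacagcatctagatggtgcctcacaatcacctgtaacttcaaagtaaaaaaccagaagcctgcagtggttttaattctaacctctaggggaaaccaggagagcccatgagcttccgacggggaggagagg
Fasn: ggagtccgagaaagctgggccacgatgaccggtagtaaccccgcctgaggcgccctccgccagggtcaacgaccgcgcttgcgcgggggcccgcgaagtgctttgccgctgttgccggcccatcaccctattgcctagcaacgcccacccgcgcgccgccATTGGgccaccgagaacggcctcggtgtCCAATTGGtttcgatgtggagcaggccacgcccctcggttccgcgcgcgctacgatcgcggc
In Hmgcs1 the sterol element began 137 bases before the start and 3 CCAAT boxes lay around it. Mvk held 5 CCAAT boxes and Pmvk 1, while Fasn held 3, of which 2 shared bases (CCAATTGG). The window of the other Pmvk start, not shown, held 0. RefSeq promoters were found for 22 of the 28 genes and searched on both strands, without Fdps, Fdft1, Sqle, Scd1, Scd2 and Stard4. A CCAAT box was in at least 1 upstream window of 18 of the 22, against 37.5% of 27025 genes with RefSeq promoters and 33.8% of their 32851 windows of the same length. TCACNCCAC was in 1 of the 22, against 1.22% of genes and 1.05% of windows. The E-box CACGTG was in 4 of the 22 (Hsd17b7, Sc5d, Dhcr7 and Insig1), against 6.86% of genes and 6.02% of windows. In the 4 sequences shown no match of 1 motif overlapped a match of another. A match says only that these letters were in the window.

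In hypoxia with PTH against hypoxia, 3 of the 6 fatty acid genes, Fasn, Acaca and Acly, had all PTH libraries above all hypoxia libraries, as did the sterol genes Pmvk and Hsd17b7 and the regulator Srebf2. The fold change was largest for Pmvk, at 109 ± 35.9 CPM in PTH libraries, against 54.2 ± 10.1 CPM in hypoxia (mean ± SD, n = 3 each). None of the 28 genes passed edgeR's quasi-likelihood test at an adjusted p under 0.05, and neither did any gene in the table (0% called). With limma-voom 0 members and 0 of all genes were called. DESeq2 called 1 member (Pmvk), beside 156 of 19629 genes. At an unadjusted p under 0.05, 8 members were higher and 0 lower, against 9.31% of all genes (4.24% higher and 5.07% lower). Groups did not overlap for 6 members higher and 1 lower (Fdft1), against 6.60% and 7.29% of all genes. The log2 fold change was above 0 for 19 of 28 members, against 47.7% of all genes, with a median of 0.09 beside -0.01 over all genes. Without single libraries that median ran from 0.02 (without PTH replicate 3) to 0.19 (without PTH replicate 4). By role, the median was 0.23 for mevalonate to squalene, 0.04 for squalene to cholesterol, 0.31 for fatty acids and 0.10 for regulators and transport.

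In hypoxia with PTH against normoxia, the sterol carrier gene Stard4 rose, and Fasn, Acaca, Acly and Scd1 of the fatty acid branch, Insig1 and Nsdhl also had all PTH libraries above all normoxia libraries. Stard4 was the only member called at an adjusted p under 0.05 by edgeR, against 1.74% of all genes (1.27% higher and 0.468% lower); at an adjusted p under 0.1, 3 members passed, against 4.24% of all genes. Unadjusted, 9 members were higher and 0 lower at p under 0.05, against 17.2% of all genes (8.57% higher and 8.63% lower). Groups did not overlap for 7 members higher and 0 lower, against 11.4% of all genes in each direction. The fold change was above 0 for 26 of 28 members, against 47.4% of all genes, with a median of 0.20 beside -0.01. The medians by role were 0.26, 0.09, 0.38 and 0.21 in the order above. The PTH libraries are the same in both comparisons, so their values are not independent of each other.

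In hypoxia against normoxia, members differed in both directions. Stard4, Insig1, Fdft1, Scd2, Mvk, Elovl6, Nsdhl and Tm7sf2 had all hypoxia libraries above all normoxia libraries, and Pmvk, Hsd17b7 and Cyp51 had all of them below. None was called by edgeR, against 0.57% of all genes (0.412% higher and 0.158% lower). With limma-voom 0 members were called, beside 105 of 19640 genes. DESeq2 called 5 members, beside 795 of 19629 genes. Stard4 had the smallest adjusted p, 0.0951, and was the 1 member under 0.1, against 1.65% of all genes. Unadjusted, 7 members were higher and 2 lower at p under 0.05, against 11.8% of all genes (6.45% higher and 5.37% lower). The 8 members higher and 3 lower without overlap stand against 8.56% and 8.57% of all genes. The fold change was above 0 for 18 of 28, against 49.7% of all genes, with a median of 0.11 beside -0.0015. The hypoxia and normoxia libraries each also serve as the comparison group of the PTH libraries.

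**Figure D2:**
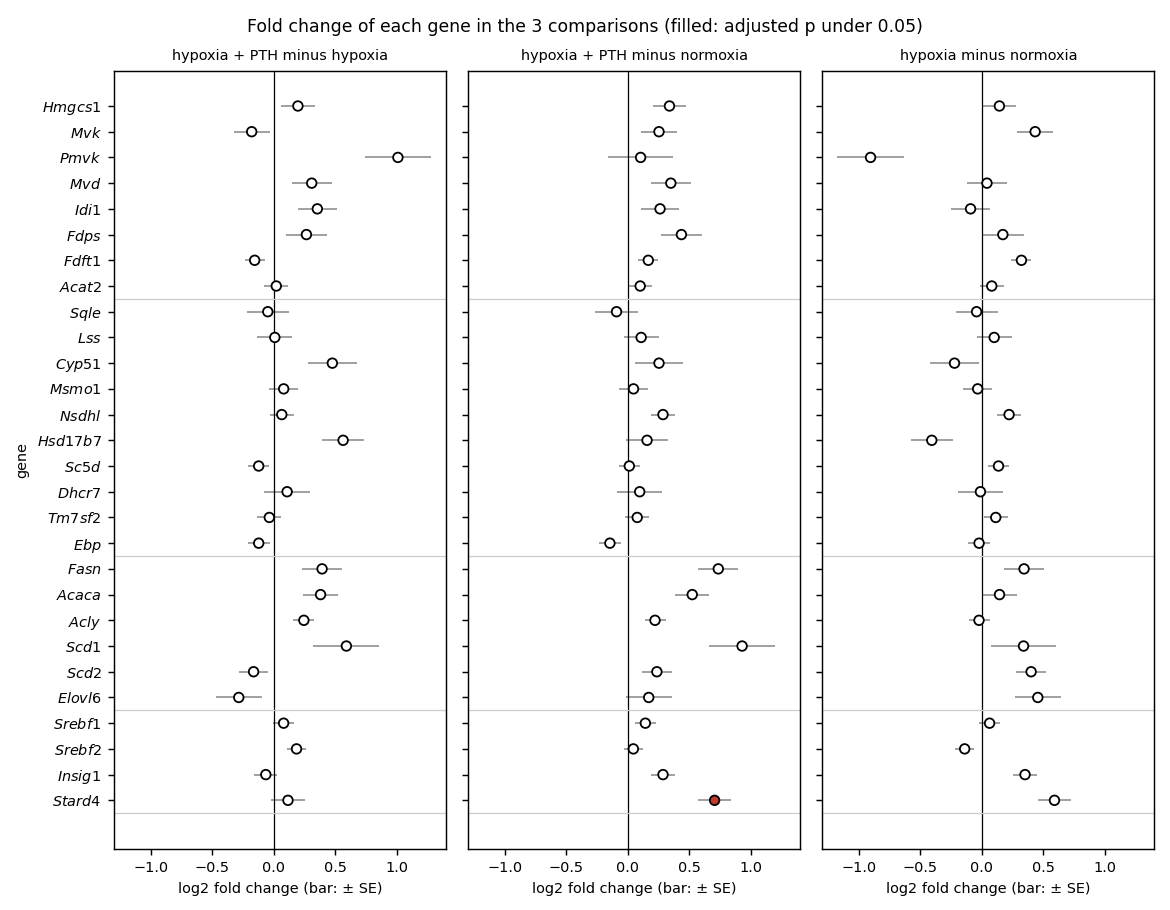
Log2 fold change with its standard error (horizontal bars) for each of the 28 genes in the 3 comparisons, ordered by role, from edgeR's model of all 9 libraries. Only Stard4 in hypoxia with PTH against normoxia, at 0.71, is filled (adjusted p under 0.05); Pmvk had 1.01 against hypoxia, while hypoxia against normoxia gave -0.91 for it.

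Among the 8 enzymes from acetyl-CoA to squalene, Pmvk (ENSMUSG00000027952, chr3:89454541-89469013, plus strand), which adds the second phosphate to mevalonate, had the largest fold change in both comparisons with hypoxia. Its level was 73.8, 108 and 146 CPM in PTH libraries, in the replicate order of the opening, 43.9, 54.5 and 64.0 CPM in hypoxia and 74.3, 102 and 128 CPM in normoxia. All hypoxia libraries were below every other library, and PTH and normoxia libraries overlapped. The log2 fold change was 1.01 ± 0.27 (SE; adjusted p = 0.426) for PTH against hypoxia and -0.91 ± 0.27 (adjusted p = 0.198) for hypoxia against normoxia. In this bulk tissue, fewer cells of a type and less RNA per cell cannot be told apart.

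Mvk (chr5:114444269-114460591, plus strand), the enzyme just before it, adds the first phosphate. It had 15.7, 16.4 and 12.9 CPM in PTH libraries, 18.8, 14.4 and 17.7 CPM in hypoxia and 14.4, 11.2 and 12.1 CPM in normoxia. Hypoxia libraries lay above normoxia libraries, the lowest hypoxia and the highest normoxia library being almost level, with a log2 fold change of 0.43 ± 0.15 (adjusted p = 0.249). The log2 ratio of Mvk to Pmvk in TPM, a pair picked after its values were seen, was -3.46 ± 0.63 in hypoxia with PTH, -2.31 ± 0.39 in hypoxia and -3.63 ± 0.54 in normoxia (SD, n = 3 each). Every hypoxia library had a higher ratio than every other library.

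Hmgcs1 (chr13:119690379-119708260, plus strand) makes HMG-CoA, the precursor of mevalonate. Its level was 114, 76.0 and 97.9 CPM in PTH libraries, 86.0, 80.2 and 85.5 CPM in hypoxia and 82.9, 67.8 and 77.2 CPM in normoxia. PTH replicates 3 and 5 were the highest of the 9 libraries, and replicate 4 lay among the normoxia libraries. Against normoxia the log2 fold change was 0.34 ± 0.13 (adjusted p = 0.235), and 0.19 without PTH replicate 3.

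Fdft1 (chr14:63145150-63179578, minus strand), squalene synthase, joins farnesyl diphosphates into squalene, the first step committed to sterols. It stood at 38.4, 32.9 and 37.5 CPM in PTH libraries, 39.7, 41.2 and 40.3 CPM in hypoxia and 34.5, 31.2 and 31.2 CPM in normoxia. Hypoxia libraries were above all others. The log2 fold change was -0.16 ± 0.08 for PTH against hypoxia (adjusted p = 0.589), -0.09 without PTH replicate 4, and 0.32 ± 0.08 for hypoxia against normoxia (adjusted p = 0.120). Ctsb, a lysosomal protease gene that overlaps Fdft1 on the other strand, had 759% of its TPM. Whether counting used the strand is not given in the sources used, so reads of such pairs may not have been kept apart. Ctsb had log2 fold changes of 0.17 for PTH against hypoxia, 0.12 for PTH against normoxia and -0.05 for hypoxia against normoxia, and was called in none.

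Of the other 4 genes of this segment, Mvd, Idi1 and Fdps, which carry on from mevalonate diphosphate to farnesyl diphosphate, shared a pattern with Hmgcs1: PTH replicates 3 and 5 were the highest 2 of the 9 libraries in each. Idi1 reached 52.5 and 50.1 CPM there and 33.2 CPM in the remaining PTH library, while hypoxia spanned 31.0 to 39.5 CPM and normoxia 36.9 to 38.8 CPM. Its log2 fold change against hypoxia was 0.35 ± 0.16 (adjusted p = 0.535), with 0.24 without PTH replicate 3, 0.54 without PTH replicate 4 and 0.20 with a muscle and fat score (per library, the average of the centred log2 CPM values of heart muscle and fat cell markers) as a covariate. Mvd differed by 0.31 ± 0.16 against hypoxia (adjusted p = 0.590) and by 0.35 ± 0.16 against normoxia (adjusted p = 0.305), which were 0.16 and 0.20 without PTH replicate 5. Fdps differed by 0.44 ± 0.17 against normoxia (adjusted p = 0.223). Mvd and Fdps overlap genes of higher level, Mvd with Gm20388 on the other strand (267% of its TPM) and Fdps with Gm43738 on the same strand (414%), so their counts are uncertain. Acat2, the cytosolic thiolase that supplies acetoacetyl-CoA, had 33.5 to 40.7 CPM in PTH libraries, 33.4 to 40.3 CPM in hypoxia and 32.8 to 36.4 CPM in normoxia.

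Among the 10 enzymes from squalene to cholesterol, Hsd17b7 (chr1:169949535-169969241, minus strand), the keto reductase of the demethylation steps, had the largest fold change in both comparisons with hypoxia, though not in PTH against normoxia (log2 0.16, against 0.29 for Nsdhl). Its level was 13.8, 9.75 and 14.1 CPM in PTH libraries, 9.38, 8.83 and 7.30 CPM in hypoxia and 12.4, 11.6 and 9.86 CPM in normoxia. Hypoxia libraries were below all others, though PTH replicate 4 exceeded the highest of them only slightly. Its log2 fold change was 0.56 ± 0.17 for PTH against hypoxia (adjusted p = 0.433) and -0.41 ± 0.17 for hypoxia against normoxia (adjusted p = 0.380).

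Cyp51, the lanosterol demethylase, had 42.2, 22.4 and 37.0 CPM in PTH libraries, 25.7, 25.3 and 22.0 CPM in hypoxia and 31.4, 27.5 and 26.3 CPM in normoxia. PTH replicates 3 and 5 were again the 2 highest, with replicate 4 among the hypoxia libraries. The log2 fold change against hypoxia was 0.48 ± 0.20 (adjusted p = 0.511), 0.29 without PTH replicate 3 and 0.70 without PTH replicate 4. Akap9 overlaps Cyp51 on the other strand with 46.0% of its TPM.

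Sqle (chr15:59315077-59331192, plus strand), the squalene epoxidase that controls entry into this segment, had 32.9, 20.7 and 26.3 CPM in PTH libraries, 23.8, 28.1 and 30.7 CPM in hypoxia and 32.9, 25.9 and 26.3 CPM in normoxia. The 3 groups overlapped fully, and adjusted p was 0.845 or higher in each comparison. Nsdhl, the sterol dehydrogenase acting just before Hsd17b7, had 15.7, 13.8 and 14.3 CPM in PTH libraries, 14.05, 13.85 and 13.99 CPM in hypoxia and 11.9, 11.4 and 12.7 CPM in normoxia. Every normoxia library was below every other library, and the log2 fold change was 0.29 ± 0.10 for PTH against normoxia (adjusted p = 0.171) and 0.22 ± 0.10 for hypoxia against normoxia (adjusted p = 0.411).

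The other 6 enzymes of this segment showed no unadjusted p under 0.1 in any comparison. Lss, which cyclises squalene epoxide to lanosterol, and Msmo1, the methyl sterol oxidase of demethylation, were lowest of all 9 libraries in PTH replicate 4, at 20.3 and 30.8 CPM, and reached 29.6 and 43.3 CPM in other PTH libraries. Ebp, the sterol isomerase, and Sc5d, the desaturase, were among the more even genes, at 30.2 to 38.1 CPM and 39.8 to 50.7 CPM over the 9 libraries. The reductases Dhcr7 and Tm7sf2 ranged from 9.26 to 14.6 CPM and from 16.4 to 20.6 CPM. Tm7sf2 overlaps Vps51 on the same strand, which had 145% of its TPM.

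**Figure D3:**
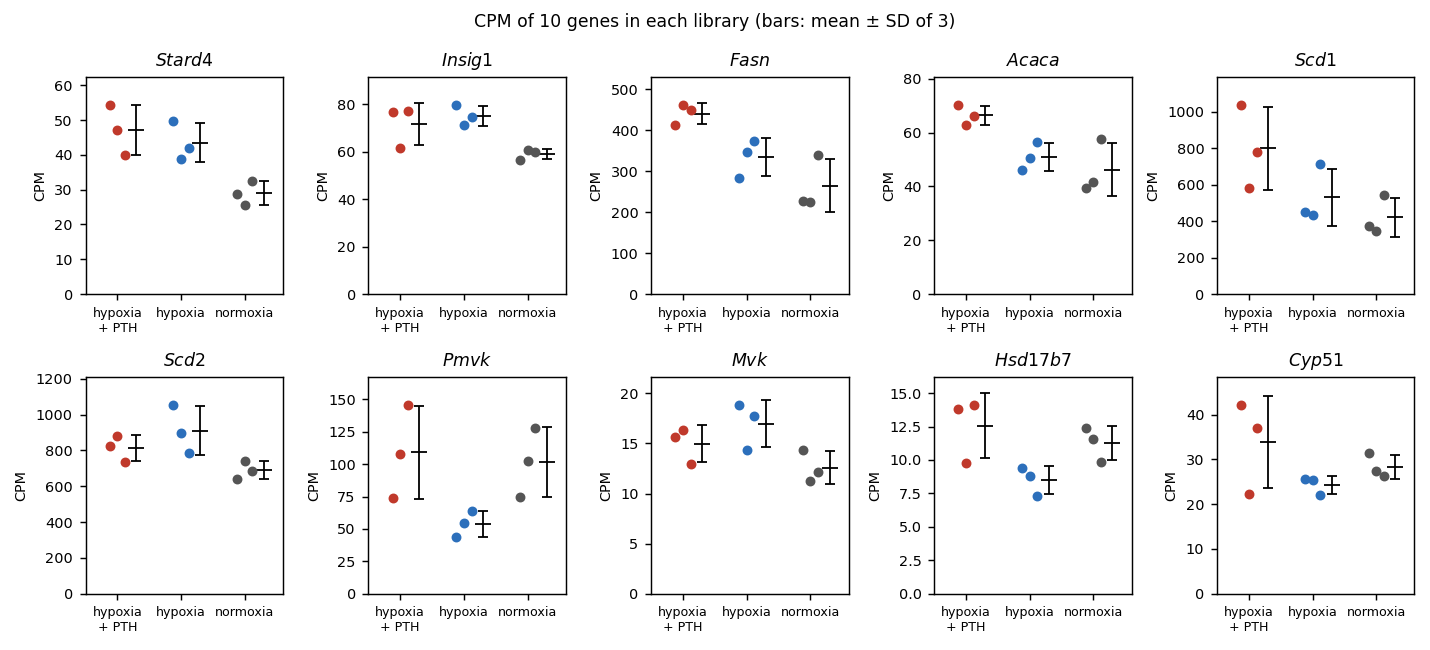
CPM of 10 genes in each library (points, in order of replicate number within a group), with mean and SD of 3 libraries beside them; axes start at 0. Stard4 and Insig1 had all normoxia libraries lowest, Fasn and Acaca had all PTH libraries highest, and Pmvk and Hsd17b7 had all hypoxia libraries lowest.

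In the fatty acid branch, Fasn (ENSMUSG00000025153, chr11:120805846-120824547, minus strand), the synthase that builds palmitate, had 412, 460 and 448 CPM in PTH libraries, 284, 347 and 374 CPM in hypoxia and 228, 226 and 340 CPM in normoxia. All PTH libraries were above all others, and replicate 5 was the highest of the hypoxia and of the normoxia libraries. The log2 fold change was 0.74 ± 0.16 against normoxia (adjusted p = 0.0592) and 0.39 ± 0.16 against hypoxia (adjusted p = 0.509). Hypoxia exceeded normoxia by 0.34 ± 0.16 (adjusted p = 0.459), or by 0.56 without normoxia replicate 5.

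Acaca (chr11:84129672-84401651, plus strand), the acetyl-CoA carboxylase that makes malonyl-CoA, had 70.2, 62.8 and 66.4 CPM in PTH libraries, 46.0, 50.6 and 56.5 CPM in hypoxia and 39.4, 41.7 and 57.6 CPM in normoxia. PTH libraries were again above all others, by 0.52 ± 0.14 in log2 against normoxia (adjusted p = 0.0953) and 0.38 ± 0.14 against hypoxia (adjusted p = 0.472). Acly (chr11:100476353-100528000, minus strand), which makes cytosolic acetyl-CoA from citrate for both branches, had 254, 217 and 221 CPM in PTH libraries, 198, 188 and 198 CPM in hypoxia and 183, 200 and 211 CPM in normoxia. It too was highest in the PTH libraries, by 0.24 ± 0.09 against hypoxia (adjusted p = 0.466) and 0.22 ± 0.09 against normoxia (adjusted p = 0.222; 0.15 without PTH replicate 3), and the hypoxia libraries lay within the normoxia range.

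The Scd genes encode stearoyl-CoA desaturases, which put the first double bond into saturated fatty acids, and the 3′ ends of Scd2 and Scd1 face each other 87587 bases apart on chromosome 19 (chr19:44293676-44306864, plus strand, and chr19:44394451-44407709, minus strand). Scd1 had 1035, 583 and 781 CPM in PTH libraries, 448, 434 and 711 CPM in hypoxia and 373, 343 and 544 CPM in normoxia. PTH libraries were above all normoxia libraries, by 0.93 ± 0.27 in log2 (adjusted p = 0.125), while hypoxia replicate 5 lay within the PTH range. Against hypoxia the fold change was 0.59 ± 0.27 (adjusted p = 0.538), and 0.36 without PTH replicate 3.

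Scd2 had 822, 882 and 735 CPM in PTH libraries, 1054, 896 and 784 CPM in hypoxia and 639, 744 and 688 CPM in normoxia. All hypoxia libraries were above all normoxia libraries, by 0.40 ± 0.12 in log2 (adjusted p = 0.194), and PTH libraries overlapped both groups (0.24 ± 0.12 against normoxia, adjusted p = 0.359). The log2 ratio of Scd1 to Scd2 in TPM was 0.11 ± 0.48 in hypoxia with PTH, -0.63 ± 0.59 in hypoxia and -0.57 ± 0.39 in normoxia (SD, n = 3 each). By a two-sided exact permutation test p was 0.2 for PTH against hypoxia and 0.2 for PTH against normoxia, where 3 against 3 libraries cannot give less than 0.1. Elovl6, which lengthens palmitate, had 4.54, 7.14 and 6.86 CPM in PTH libraries, 7.18, 8.33 and 7.08 CPM in hypoxia and 5.69, 5.89 and 4.90 CPM in normoxia. Its hypoxia libraries were above its normoxia libraries, by 0.45 ± 0.19 (adjusted p = 0.369), and PTH replicate 3 was the lowest of all 9.

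The regulators Srebf1 (chr11:60199089-60222581, minus strand) and Srebf2 (chr15:82147266-82205376, plus strand) were among the steadier genes. Srebf1, whose products favour fatty acid genes, had 113, 102 and 106 CPM in PTH libraries, 106, 95.9 and 102 CPM in hypoxia and 101, 103 and 86.0 CPM in normoxia, and the groups overlapped in each comparison (adjusted p of 0.444 or higher). Rai1 overlaps Srebf1 on the other strand with 34.2% of its TPM. Srebf2, which favours sterol genes, had 178, 163 and 188 CPM in PTH libraries, 161, 154 and 150 CPM in hypoxia and 169, 183 and 161 CPM in normoxia. Its PTH libraries were above its hypoxia libraries by 0.18 ± 0.08 in log2 (adjusted p = 0.523), with normoxia overlapping both. That difference was 0.12 with the muscle and fat marker score as a covariate.

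Insig1 (chr5:28071363-28078662, plus strand) encodes the sterol-sensing anchor that retains SREBPs and is itself an SREBP target. It had 76.9, 61.7 and 77.1 CPM in PTH libraries, 79.5, 71.3 and 74.8 CPM in hypoxia and 56.5, 60.6 and 59.8 CPM in normoxia. Normoxia libraries were below all others, PTH replicate 4 being close to them. Log2 fold changes were 0.29 ± 0.09 for PTH against normoxia (adjusted p = 0.161) and 0.35 ± 0.09 for hypoxia against normoxia (adjusted p = 0.142).

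Stard4 (ENSMUSG00000024378) encodes a soluble carrier that moves cholesterol between membranes and is also an SREBP target. It had 54.2, 47.2 and 40.1 CPM in PTH libraries, 49.7, 38.9 and 42.1 CPM in hypoxia and 28.9, 25.5 and 32.4 CPM in normoxia. Every library kept at low oxygen, with or without PTH, was above every normoxia library, and the PTH and hypoxia libraries overlapped. Means were 47.2 ± 7.06 CPM in hypoxia with PTH and 28.9 ± 3.45 CPM in normoxia (SD, n = 3 each), and the difference was 0.71 ± 0.14 in log2 (edgeR adjusted p = 0.0340). Hypoxia against normoxia gave 0.59 ± 0.14 (adjusted p = 0.0951). The call depends on single libraries: adjusted p was 0.106 without normoxia replicate 2, 0.118 without normoxia replicate 3, and 0.0737, 0.0878 and 0.0523 without PTH replicates 3, 4 and 5, with fold changes of 0.59 to 0.81. Over all alternatives it ran from 0.000208 to 0.290.

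PTH libraries did not behave as 1 block. Replicates 3 and 5 were the 2 highest of the 9 libraries in 12 of the 28 genes, namely Hmgcs1, Mvd, Idi1, Fdps, Cyp51, Msmo1, Nsdhl, Hsd17b7, Acaca, Acly, Scd1 and Srebf1. Among the 18 sterol enzymes, replicate 4 was below both other PTH libraries in 14, and replicate 3 exceeded it by a median of 0.37 and replicate 5 by 0.36 in log2 CPM. In the 6 fatty acid genes replicate 4 was below both other PTH libraries in 3, and these medians were 0.03 and -0.01. Some PTH library was the highest of all 9 in 20 of the 28 genes, and some normoxia library the lowest in 18. These library ranks were not counted over all genes tested, so they do not show a trait particular to these genes.

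Replicate 5 of hypoxia and of normoxia, with low clock scores, lay above or below the other libraries of its group in several members. In both groups Fasn, Acaca, Scd1 and Pmvk were above both other libraries of their group, and Mvd, Idi1, Cyp51, Msmo1, Hsd17b7, Sc5d, Elovl6 and Srebf2 were below both. The groups went opposite ways for Dhcr7 (above in hypoxia, below in normoxia) and Lss (below in hypoxia, above in normoxia). Of the 28 members, hypoxia replicate 5 was highest of its group in 7 and lowest in 10, against 34.7% and 34.4% of all genes. For normoxia replicate 5 these were 8 and 14 members, against 37.2% and 36.8% of all genes. Agreement between both groups was not counted over all genes tested. Over all 9 libraries, Mvd, Idi1, Cyp51, Msmo1 and Hsd17b7 were highest in PTH replicates 3 and 5, which also had low scores. Cyp51 had 42.2 and 37.0 CPM there, against 22.0 CPM in hypoxia replicate 5. Every PTH library had a low score, so PTH and clock phase cannot be told apart in them. Of the 18 sterol enzymes, replicate 5 of hypoxia was the lowest of its group in 7 and the highest in 4, and over all genes tested it was lowest in 34.4% and highest in 34.7%. Replicate 5 of normoxia was lowest in 11 and highest in 3, against 36.8% and 37.2% of all genes tested. With the clock score as a covariate, the log2 fold change of PTH against hypoxia was 0.11 for Fasn, 0.12 for Acaca and 0.14 for Scd1, and 0.75 for Hsd17b7 and 0.57 for Cyp51. Against normoxia it was 0.51 for Fasn, 0.31 for Acaca, 0.53 for Scd1 and 0.66 for Stard4 (adjusted p = 0.156 for Stard4). All PTH libraries were higher than replicate 5 of hypoxia and of normoxia for Fasn and Acaca. For Scd1, PTH replicate 4 (583 CPM) was below hypoxia replicate 5 (711 CPM), and for Pmvk, PTH replicates 3 and 4 (73.8 and 108 CPM) were below normoxia replicate 5 (128 CPM). With 1 such library in each of these groups, none of this was tested. The part of clock phase in these differences was not tested beyond this covariate.

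**Figure D4:**
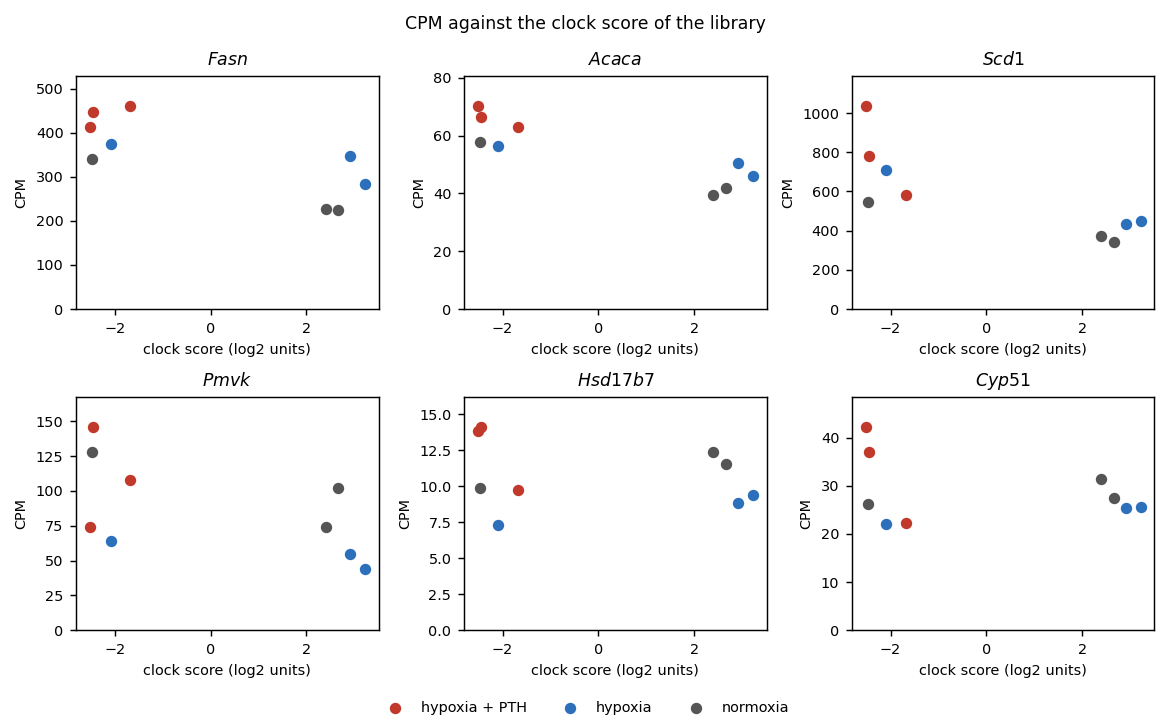
CPM of 6 genes (vertical axes, from 0) against the clock score of the library in log2 units (horizontal axes), 1 point per library, coloured by group. Acaca and Scd1 were lower in the 4 libraries with scores above 2 than in the other 5, as was Fasn apart from hypoxia replicate 2 (347 CPM) being above normoxia replicate 5 (340 CPM), while for Hsd17b7 and Cyp51 the low-score libraries of hypoxia and normoxia were the lowest of their groups and PTH replicates 3 and 5 the highest of all 9.

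Summed markers of type 2 alveolar cells and of alveolar macrophages were also higher in every PTH library than in every other library. For type 2 cells the lowest PTH library (25906 CPM) and the highest normoxia library (25789 CPM) were almost level. Sftpc alone gave 13051.7 to 14644.5 CPM in PTH libraries, 10457.7 to 11253.9 CPM in hypoxia and 10449.8 to 13054.3 CPM in normoxia. All 12 type 2 alveolar markers had fold changes above 0 for PTH against hypoxia, with a median of 0.38 and none called, and a median of 0.22 against normoxia. Alveolar macrophage markers (11 genes) summed to 961 to 1090 CPM in hypoxia with PTH, 856 to 937 CPM in hypoxia and 740 to 880 CPM in normoxia, of which Chil3 alone gave 540 to 612 CPM in hypoxia with PTH, 455 to 483 CPM in hypoxia and 319 to 414 CPM in normoxia. Without Chil3, the summed level of PTH replicate 3 was no longer above every hypoxia and normoxia library. Against normoxia, 9 of the 11 had fold changes above 0 in PTH and 3 were called higher (Chil3, Mrc1 and Plet1), while Car4 (-0.36, adjusted p = 0.260) and Marco (-0.25, adjusted p = 0.523) were below 0. Lipofibroblast markers (7 genes) summed to 1998 to 2008 CPM in hypoxia with PTH, 1729 to 2068 CPM in hypoxia and 1360 to 1491 CPM in normoxia. Npnt alone gave 1011 to 1126, 893 to 1251 and 597 to 721 CPM of these sums. Fold changes were above 0 for 5 of the 7 in PTH against hypoxia, 7 in PTH against normoxia and 4 in hypoxia against normoxia. No marker of these 3 lists was at 0 in any library. In contrast, all 9 adipocyte markers tested and all 12 cardiac muscle markers had log2 fold changes below 0 for PTH against hypoxia, with medians of -2.64 and -1.77 and none called. Cardiac muscle markers summed to 533, 436 and 55.1 CPM in PTH libraries, 457, 1071 and 1718 CPM in hypoxia and 929, 527 and 280 CPM in normoxia, and none was at 0 in any library. PTH replicate 5 stood apart as the lowest, and the hypoxia and PTH groups overlapped. The muscle and fat score was -0.49, -0.06 and -2.99 in PTH libraries, -0.83, 1.96 and 2.07 in hypoxia and 1.53, -0.21 and -0.998 in normoxia. The part of any of these cell types in the members' differences was not tested beyond that score as a covariate.

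Other genes of the pathways, none of them called in any comparison, were read beside the members. In PTH against hypoxia, 10 of 18 further sterol genes, 10 of 24 further fatty acid and phospholipid genes and 5 of 9 LXR and efflux genes had fold changes above 0, with medians of 0.01, -0.12 and 0.02. Against normoxia these were 12, 13 and 6 genes with medians of 0.15, 0.07 and 0.22. In hypoxia against normoxia they were 11, 15 and 5 genes with medians of 0.02, 0.06 and 0.07. The smallest p-values of PTH against normoxia were those of Lpcat3, a phospholipid acyltransferase (0.68 ± 0.15, adjusted p = 0.0543), the cholesterol exporter Abcg1 (0.43 ± 0.10, adjusted p = 0.0738) and the lysosomal cholesterol transporter Npc1 (0.44 ± 0.11, adjusted p = 0.0738). Against hypoxia they were those of the acyl-CoA synthetases Acsl4 (0.33 ± 0.08) and Acsl1 (-0.83 ± 0.21) and of Npc1 (0.39 ± 0.11), each with an adjusted p of 0.426. In hypoxia against normoxia, Acsl4 (-0.34 ± 0.08, adjusted p = 0.0889), the oxysterol receptor gene Nr1h3 (0.38 ± 0.09, adjusted p = 0.108) and the choline kinase gene Chka (-0.34 ± 0.09, adjusted p = 0.134) came first. Acsl4 had 143, 130 and 144 CPM in PTH libraries, 106, 119 and 106 CPM in hypoxia and 136, 140 and 145 CPM in normoxia, with the hypoxia libraries lowest.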

How the data were processed

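Whole-lung RNA was sequenced in 9 libraries, 3 per group, with a directional poly(A) kit. Per the submitters' processing notes, Trimmomatic 0.39, STAR 2.7.9a and build mm10 were used; the read counter, strand setting and annotation were not given in the sources used. The table deposited by the authors holds estimated counts per gene, of which 11.6% of those above 0 were whole (tolerance 1e-06). Among whole values between 1 and 20, 88.9% were even, as if both mates had been counted. Its normalized columns, as deposited by the authors, are in log2 TPM, floored at 1 TPM. Values above that floor summed to 997249 to 997533 TPM per library.

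In R 4.3.3, rounded counts went into edgeR 4.0.16 (TMM, filterByExpr with minimum count 10 and minimum total 15, robust quasi-likelihood F test), with all 9 libraries in a single model (6 residual degrees of freedom). After filtering, 19640 genes were left, over which p was adjusted (Benjamini-Hochberg), and an adjusted p under 0.05 counted as called. CPM used TMM library sizes, and levels between genes used TPM. The test was tried on simulated counts, drawn with the same spread for all genes and no clock or tissue differences between libraries. That trial therefore does not bear on such differences. A positive log2 fold change means higher in the group named first, and ± gives its SE.

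The 28 members, the marker and pathway lists and the tests were chosen with earlier results of these data known. Genes given by library were those called, the 4 with the smallest p in each comparison and 8 well-known enzymes or regulators; Mvk, Cyp51, Idi1, Nsdhl and Elovl6 were added after their values were seen. Of other pathway genes, up to 3 per comparison with the smallest p are named. Alternatives were other size factors, filters, samples and thresholds, DESeq2 1.42.0, limma 3.58.1 (voom, and trend on log2 TPM), a replicate block, each library left out, and covariates for clock phase and for muscle and fat markers. Replicate numbers were not treated as pairs.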

Additional observations from a re-analysis of the deposited data

How the results depend on the processing

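Of 660 values (33 fold changes of members under 20 alternatives each), 634 kept their direction and side of the threshold, 16 passed it only under the alternative, 10 no longer passed it, and 0 reversed. The number of members called in hypoxia with PTH against hypoxia was 0 by edgeR, with 8 at an unadjusted p under 0.05, and 0 by limma-voom. It was 1 (Pmvk) by DESeq2, where 156 of 19629 genes were called, and 0 without any single library. In hypoxia with PTH against normoxia it was 1 (Stard4), with 9 unadjusted, and 1 by limma-voom, where 303 of 19640 genes were called. It was 2 (Fasn and Stard4) with no filter, where 451 of 31220 genes were called. By DESeq2 it was 4 (Fasn, Acaca, Scd1 and Stard4), where 1422 of 19629 genes were called. At an adjusted p under 0.1 it was 3 (Fasn, Acaca and Stard4), against 4.24% of all genes. It was 0 by limma-trend on log2 TPM (adjusted p of Stard4 0.0947), 0 with only the 6 samples compared (0.0532), 0 with the muscle and fat score (0.0870) and 0 with the clock score as a covariate (0.156). Without single libraries it ran from 0 to 3, with 3 (Fasn, Acaca and Stard4) without normoxia replicate 5, where 290 of 20006 genes were called. In hypoxia against normoxia it was 0, with 9 unadjusted and 0 by limma-voom. It was 1 (Stard4) with no filter, where 198 of 31220 genes were called. By DESeq2 it was 5 (Pmvk lower, and Fdft1, Scd2, Insig1 and Stard4 higher), where 795 of 19629 genes were called. At an adjusted p under 0.1 it was 1 (Stard4), against 1.65% of all genes. The cause of these changes was not tested, apart from fewer samples or genes where the alternative itself removes them.

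Residuals of libraries with the same replicate number correlated between -0.10 and 0.14, and those of different number, from different groups, between -0.27 and 0.27. With so few libraries this cannot show whether the numbers are pairs, and they were not taken as pairs. With a replicate block, which leaves 2 residual degrees of freedom, 0 members were called in hypoxia with PTH against normoxia (Stard4 adjusted p = 0.290), and the block changed no other count of members called. Where a library is left out, a group of 2 remains and shares the spread of the others. With 3 libraries per group, SEs of 0.08 to 0.27 in log2 among the members against normoxia limit what can be detected.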
